A study of Homo sapiens with 11 samples.

Results

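The skipped-exon events described here are those whose exon was mostly skipped on both sides of a comparison of HCC78 cells transduced with S34F or wild-type U2AF1. An event is 1 exon (the cassette exon) that is either spliced in between its upstream and downstream neighbours or passed over. PSI (percent spliced in, deposited as a fraction from 0 to 1) is the share that includes the exon, among the forms of that event. The same exon can have another PSI in an event with other neighbours. Members were the events with at least 20 reads on each side of the comparison and a mean PSI of both sides of at most 0.1. The rule kept 9250 of 36059 events with enough reads (25.7%), of 44898 unique events in all. The members were thus chosen by their PSI on both sides and by their reads, so their PSI values and the differences between the sides are given as a description with no test.

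HCC78 is a human lung adenocarcinoma line with a SLC34A2-ROS1 fusion, and the parental line already carries U2AF1 S34F: the labels give the S34F form 32% of U2AF1 mRNA in both parental libraries. Wild-type (WT) or S34F cDNA, with an epitope tag, was placed in a doxycycline-inducible lentiviral vector, and stable subclones were used, and how many clones each stands for is not given in the sources used here. A difference between the constructs and a difference between the subclones cannot be told apart, other than through the uninduced libraries. The RNA-seq groups were S34F dox+ (2 libraries, 62% and 65% S34F mRNA), WT dox+ (2 libraries, 12% and 14%), WT dox- (2 libraries, 33% each), S34F dox- (1 library, 28%) and parental cells labelled as without doxycycline (2 libraries). All groups therefore held both forms of U2AF1, in different proportions. The splicing table sets the S34F side against the wild-type side with 1 PSI and 1 read number per side. Which libraries entered it and how they were joined is not given in the sources used here; the sides were taken to be S34F dox+ and WT dox+, and these values have no replicate error.

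U2AF1 is the small subunit of the U2 auxiliary factor, which reads the AG dinucleotide at the end of an intron and so helps to fix where an exon begins. The S34F change lies in the first zinc finger of the protein and alters which bases next to the AG are preferred. Exons that are rarely used often have weak splice sites, and some of them are poison exons, whose inclusion brings in a premature stop codon and sends the transcript to nonsense-mediated decay (NMD). Transcripts removed by NMD are undercounted in RNA-seq, so a low PSI can stand for rare inclusion or for rapid loss of the included form, and PSI alone cannot tell these apart. The event names give where the upstream exon ends, where the cassette exon begins and where the next exon begins, in GRCh37 (hg19), but not where the cassette exon ends, so its length and reading frame are not known here.

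U2AF1 itself was measured at 164.44 and 222.76 FPKM (fragments scaled to the length of the transcript and to the depth of the library) in the S34F dox+ libraries. It was at 277.60 and 299.05 FPKM in WT dox+ and between 102.76 and 115.06 FPKM in the 5 other libraries, so both induced groups lay above the uninduced ones. Epithelial genes were high in every library (KRT7 at 2872.82 to 4195.52 FPKM, EPCAM at 407.23 to 545.24) and the lung lineage factor NKX2-1 was at 49.05 to 67.80 FPKM, whereas the surfactant genes SFTPB and SFTPC were at most 2.05 and 0.69 FPKM. Of the leukocyte markers, PTPRC and CD3E were at most 2.71 and 1.67 FPKM, while CD68, a lysosomal protein of macrophages that other cells also make, was at 13.48 to 34.42 FPKM. CD68 was at 34.42 and 23.84 FPKM in S34F dox+ and at 19.32 and 17.39 in WT dox+ (log2 fold change 0.62 ± 0.19 SE, limma-trend adjusted p = 0.582), and its part in the results was not tested. The endothelial marker VWF was at most 1.21 FPKM and the fibroblast markers COL1A1, COL1A2 and PDGFRB at most 7, 1.43 and 2.73 FPKM. The S34F dox+ replicate 2 library stood apart in breadth, with 20896 genes at 1 FPKM or more against 13661 to 17716 in the others. Events of the members held a median of 603 reads on the S34F side and 877.5 on the wild-type side, and the median ratio of reads (S34F over wild-type) was 0.679.

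The members were spread over 5233 host genes, 45.0% of the 11628 genes with an event with enough reads, and over 8588 distinct cassette 3′ splice sites. A single member was found in 2767 of these genes, and 358 genes held 5 or more. WARS, the cytosolic tryptophanyl-tRNA synthetase, held the most with 30 members at 13 cassette sites, followed by the elongation factor subunit EEF1D with 23 and the RNA-binding protein HDLBP with 21. Events of 1 gene often overlapped: 1211 members shared their cassette 3′ splice site with another member, 2011 had the same transcript ends and the same reads as another member, and 1246 were listed under more than 1 gene. Members are therefore not independent of each other. For 544 members (5.88%) the same cassette site was also used in an event above the limit, so a site that is rarely used with 1 set of neighbours was used more often with another. Protein-coding genes hosted 98.5% of the members and 96.5% of all other events. The intron before the cassette exon had a median length of 2246.5 bases in members and 2545 bases in the other events.

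Inclusion was very low in a large share of the members. Mean PSI was at most 0.01 in 1590 members (17.2%), over 0.01 and up to 0.02 in 1355 (14.6%), over 0.02 and up to 0.05 in 3159 (34.2%) and over 0.05 and up to 0.1 in 3146. The median was 0.04 on the S34F side and 0.03 on the wild-type side. Both sides were listed at 0 in 359 members, and 874 members were above 0.10 on 1 side. Deposited PSI has 2 decimals, so the smallest difference that can be seen is 0.01.

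Every member has low inclusion by the rule, and the members with the most reads were almost never spliced in on either side. The cassette event of ACTB, the cytoplasmic beta-actin, was at 0.01 on both sides with 111270 reads on the S34F side and 152026 on the wild-type side. The event of ACTG1, the gamma-actin, was at 0 on both sides with 66083 and 88616 reads. An event on the minus strand of chromosome 12, listed under both keratin names KRT18/KRT8, was also at 0 on both sides. Those of the chaperone HSP90AA1 and the glycolytic enzyme PKM were too, and each of these events had at least 33103 reads a side. These counts cover the whole transcripts of an event, not its exon junctions.

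At the limit of the rule, the most covered member at a mean PSI of 0.1 was in PLEC, the cytolinker plectin, at 0.13 on the S34F side and 0.07 on the wild-type side. The next was in MET, the receptor tyrosine kinase, at 0.08 and 0.12. Just outside, the most covered events were in FN1, fibronectin, at 0.19 and 0.04 (7443 and 7706 reads, Bayes factor 17.31) and in HNRNPC at 0.13 and 0.11. The FN1 event met both call thresholds and was left out only because its mean PSI of 0.115 was over the limit.

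Small differences were more often towards inclusion on the S34F side. PSI was higher on the S34F side in 4992 members (54.0%), lower in 1901 (20.6%) and equal in 2357 (25.5%). Over all events with enough reads, 48.3% were higher, 39.4% lower and 12.2% equal. The members thus stood apart more by fewer lower and more equal events than by more higher ones. Their median difference (S34F minus wild-type) was 0.01 and the mean 0.00983. Differences of members ran from -0.03 at the 5th percentile to 0.06 at the 95th, and all lay between -0.14 and 0.15. A difference of at least 0.05 towards inclusion was seen in 892 members (9.64%) and towards skipping in 264 (2.85%), against 25.7% and 22.1% of all events with enough reads, although PSI near 0 leaves members less room to differ. Members of at least 500 reads on each side numbered 5165, of which 47.0% were higher and 20.1% lower in S34F, with a median difference of 0.

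**Figure D1:**
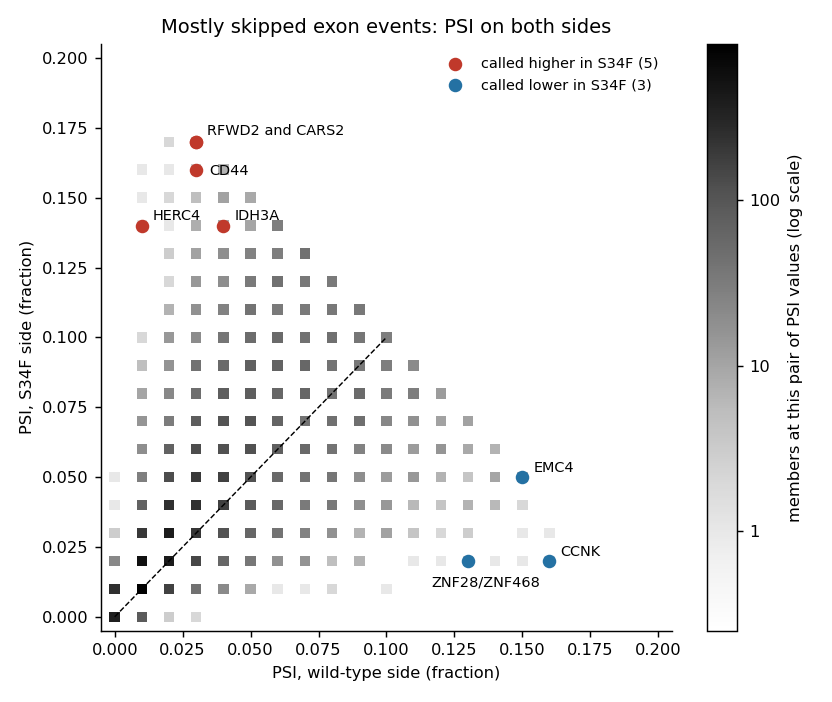
PSI (fraction) of the 9250 members on the wild-type side (horizontal) and the S34F side (vertical); the grey level gives the number of members at each pair of values on a log scale, the dashed line marks equal PSI, and coloured points are the 5 members called higher and the 3 called lower in S34F. Most members lie at or just above the line, and RFWD2 and CARS2 share the point at 0.03 and 0.17.

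This excess moved with the number of reads. With 20 to 49 reads on the side with fewer, 69.4% of 157 members were higher and 22.9% lower in S34F, and with 2000 reads or more, 34.7% of 1373 were higher and 18.1% lower. The median of the mean PSI fell over the same bins from 0.07 to 0.015. It also moved with the ratio of reads. Where the S34F side had under 0.5 times the reads of the wild-type side, 76.3% of 156 members were higher in S34F. Where it had at least as many reads, 34.5% of 110 were higher and 44.5% lower. In the 6474 events at the other end of the scale, with a mean PSI of at least 0.9, the direction was opposite: 30.8% were higher and 46.2% lower in S34F, and 73.4% of those with 20 to 49 reads were lower. With 2000 reads or more at that end, 33.5% were higher and 30.2% lower. Below 2000 reads the S34F side, which had fewer reads, was thus more often nearer to the middle of the scale at both ends. The part of read depth in this excess was not tested.

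**Figure D2:**
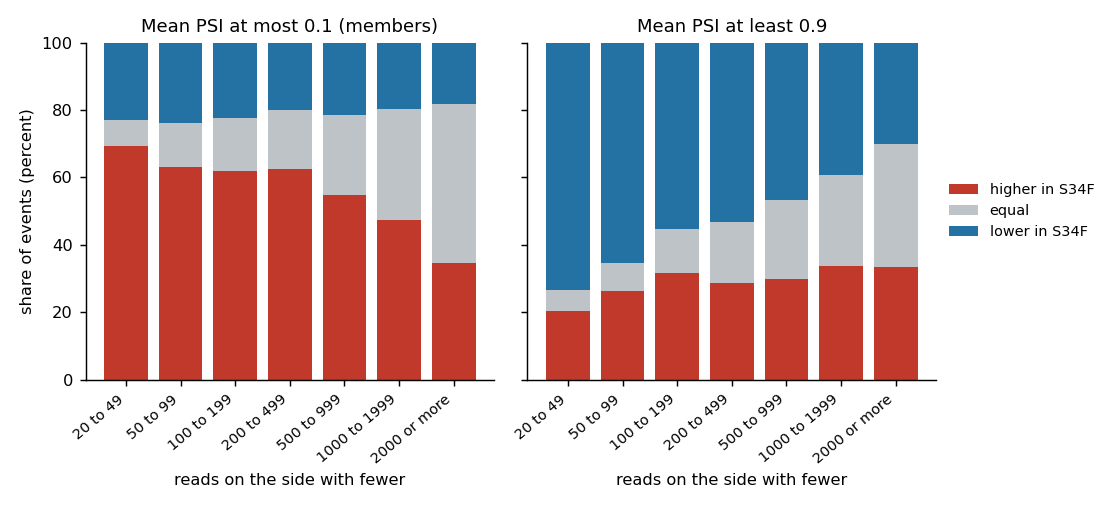
Share of events (percent) that were higher, equal or lower in PSI on the S34F side, by the reads on the side with fewer, for members (left) and for events with a mean PSI of at least 0.9 (right). The share higher among members goes from 69.4% to 34.7% across the bins, and in the right panel the share lower goes from 73.4% to 30.2%, where 33.5% are higher.

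Few members were called, that is, had sides at least 0.1 apart in PSI together with a Bayes factor no lower than 5. The Bayes factor is the score deposited by the authors from MISO, the program that estimated PSI; it weighs a difference between the sides against none and rests on the reads of these sides, not on replicates. Among the members, 5 were called higher in S34F and 3 lower (0.0541% and 0.0324%), against 0.807% and 0.749% of all events with enough reads. The rule bounds the difference at 0.2, so these lower shares follow in part from how members were chosen. The 5 exons that gained inclusion lay in genes of ubiquitin transfer (RFWD2, HERC4), mitochondrial metabolism (CARS2, IDH3A) and adhesion (CD44). The 3 that lost it lay in a transcriptional cyclin (CCNK), a zinc-finger pair (ZNF28/ZNF468) and a membrane insertion complex (EMC4).

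RFWD2, also known as COP1, is an E3 ubiquitin ligase whose substrates include JUN and p53. Its cassette exon begins at 176103036 on the minus strand of chromosome 1, after an intron of 1109 bases, and was at 0.17 in S34F and 0.03 in wild-type (1013 and 1290 reads, Bayes factor 19.89). An event whose cassette exon begins at 176104222, just upstream, was at 0.83 and 0.89. The other RFWD2 members, at 176069497 and 176137884, were at 0.01 on both sides, so the 3 members of this gene did not move together.

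HERC4, a HECT-type E3 ubiquitin ligase, held the called gain with the largest Bayes factor. Its exon begins at 69747901 on the minus strand of chromosome 10, after an intron of 518 bases, and was at 0.14 in S34F and 0.01 in wild-type (704 and 1078 reads, Bayes factor 240.87). The remaining 2 members of HERC4 were at 0.06 and 0.05 and at 0.04 and 0.02.

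CD44 encodes the hyaluronan receptor, whose central variable exons are included in epithelial isoforms and left out of the standard form. Its called exon begins at 35218293 on the plus strand of chromosome 11, the first cassette start listed after the constant exon that ends at 35211612, and was at 0.16 in S34F and 0.03 in wild-type (1850 and 2839 reads, Bayes factor 49.36). CD44 had 32 events with enough reads and 8 members, and differences over all of them ran from -0.22 to 0.29. Its 7 other members, all in the same block, lay at 0.03 to 0.06 in S34F and 0.04 to 0.14 in wild-type, and none of them was higher in S34F. Among events above the limit, the exon that begins at 35227659 was at 0.67 on the S34F side and 0.38 on the other when joined from 35211612 (Bayes factor 83.95). The block thus held differences in both directions.

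CARS2 encodes the mitochondrial cysteinyl-tRNA synthetase. Its exon at 111303447 on the minus strand of chromosome 13 was at 0.17 in S34F and 0.03 in wild-type, with 331 and 496 reads and a Bayes factor of 6.65. The remaining 5 CARS2 members differed by -0.03 to 0.01.

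IDH3A is the catalytic subunit of the mitochondrial NAD-dependent isocitrate dehydrogenase of the citric acid cycle. Its called exon begins at 78449250 on the plus strand of chromosome 15 and was at 0.14 in S34F and 0.04 in wild-type (385 and 661 reads, Bayes factor 7.06). The same 3′ splice site was the cassette site of 3 other events, joined to other neighbours, at 0.08 to 0.18 in S34F and 0.01 to 0.03 in wild-type, with Bayes factors of 0.29 to 1.30. All 4 were higher in S34F, but they share reads. A nearby exon of the same gene, at 78449890, was at 0.55 and 0.88, with a Bayes factor of 2.14.

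CCNK encodes cyclin K, the partner of CDK12 and CDK13 in transcription elongation, and held the called member with the largest Bayes factor. Its exon begins at 99958283 on the plus strand of chromosome 14, after an intron of 10466 bases, and was at 0.02 in S34F and 0.16 in wild-type (842 and 1206 reads, Bayes factor 2281.41). The other CCNK event, an exon at 99967693, was at 0.93 in S34F and 0.65 in wild-type with a Bayes factor of 4.28.

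The ZNF28/ZNF468 event is listed under 2 neighbouring zinc-finger genes of the same family, and reads can be hard to place between such copies. Its exon at 53357360 on the minus strand of chromosome 19, after an intron of 150 bases, was at 0.02 in S34F and 0.13 in wild-type (1643 and 2222 reads, Bayes factor 14.81). The member that begins at 53357379, close to it, was at 0.04 and 0.13 (Bayes factor 4.48).

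EMC4 is a subunit of the complex that inserts membrane proteins at the endoplasmic reticulum. Its exon at 34517716 on the plus strand of chromosome 15 was at 0.05 in S34F and 0.15 in wild-type, with 237 and 371 reads and a Bayes factor of 7.25. Joined to a nearer downstream exon, the same 3′ splice site was at 0.57 in S34F and 0.84 in wild-type, with 65 and 95 reads and a Bayes factor of 1.45. Both uses were thus lower in S34F.

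A Bayes factor of at least 5 at any difference was reached by 25 members in 20 genes, 16 higher and 9 lower in S34F (0.27% of members against 1.69% of all events with enough reads). The members named from here to the end of the next paragraph were chosen after their values were seen. The small GTPase RAP1B, which acts in integrin signalling and cell adhesion, held 5 of them, at 3 cassette starts (69018288, 69018451 and 69018455 on the plus strand of chromosome 12) joined from 2 upstream exon ends. All 5 were at 0.01 in wild-type and at 0.05 to 0.08 in S34F, with Bayes factors of 21.06 to 624634.55, and share most of their reads. Not called but higher in S34F by 0.08 or 0.09 were events of IL18/SDHD at 0.10 against 0.01, AKT1 at 0.12 against 0.04, FOXK2 at 0.11 against 0.03 and ELOVL1 at 0.09 against 0.01. The IL18/SDHD event is on the minus strand, that of the cytokine gene IL18. AKT1 is a growth-factor kinase, FOXK2 a forkhead transcription factor and ELOVL1 an elongase of very long fatty acids. FBXL5, an iron-sensing ubiquitin ligase subunit, was at 0.07 against 0.01, and BOD1L1, which protects replication forks, at 0.04 against 0.02.

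On the other side, the splicing factor SRSF7 was at 0.05 in S34F and 0.12 in wild-type (1533 and 2418 reads, Bayes factor 273.85). NSFL1C, a cofactor of the segregase p97, was at 0.01 against 0.10, and the actin-monomer binder TWF1 at 0.02 against 0.09. PICALM, a clathrin assembly protein, was at 0.01 against 0.08 for the exon that begins at 85701421 on chromosome 11 (Bayes factor 32.24), and at 0.06 against 0.12 for the neighbouring start at 85701442 (Bayes factor 2.60). The coatomer subunit COPB2 had 2 events at a single cassette site, at 0.02 and 0.03 in S34F against 0.07 and 0.08 in wild-type.

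**Figure D3:**
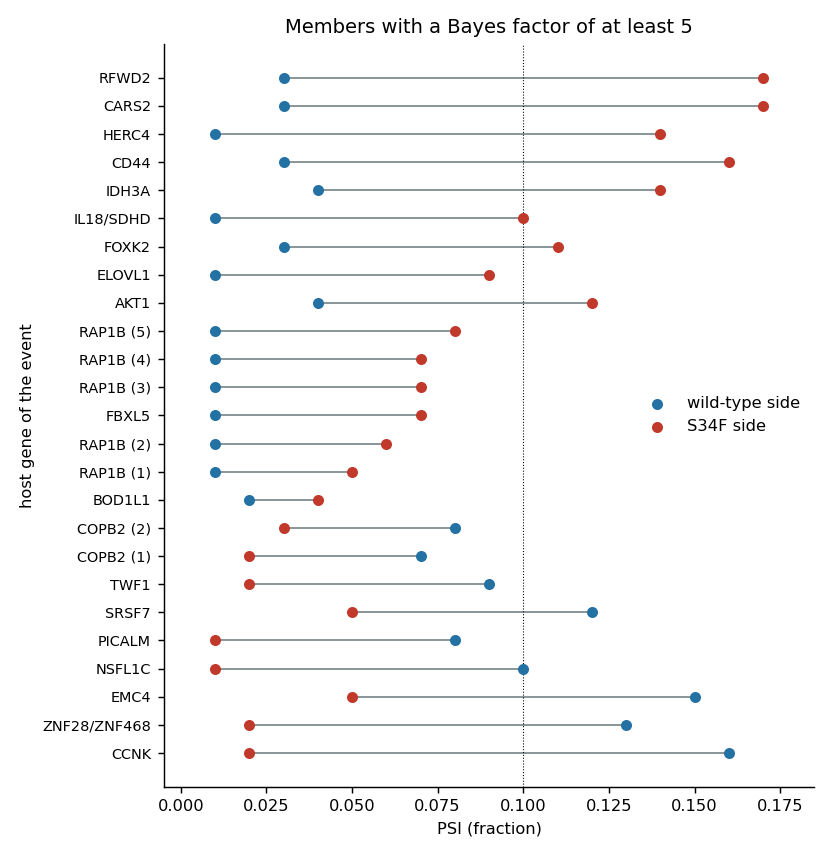
PSI (fraction) on the wild-type side (blue) and the S34F side (red) of the 25 members with a Bayes factor of at least 5, by host gene; numbers in brackets tell events of 1 gene apart and the dotted line marks a PSI of 0.1. The 16 members higher in S34F start from 0.01 to 0.04 on the wild-type side.

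Among members with at least 500 reads on each side, the largest gain that was not called was in CAMK2G, a calcium/calmodulin-dependent kinase, at 0.17 in S34F and 0.02 in wild-type with a Bayes factor of 0.68. Events of WARS (0.16 and 0.02, Bayes factor 2.62) and the vitamin D receptor VDR (0.17 and 0.03, Bayes factor 0.78) were next. The largest losses that were not called were in the protease PCSK7 (0.03 and 0.16, Bayes factor 1.81), the nuclear receptor coactivator NCOA7 (0.04 and 0.15, 0.99) and the junction protein USP53 (0.04 and 0.15, 0.62). Differences as large as those of the called members were thus also found at Bayes factors under 5. Without a minimum Bayes factor, 81 of the 9250 members were higher and 26 lower by at least 0.1. Of all 36059 events with enough reads, 5473 were higher and 4908 lower by as much. The rule leaves members less room for such differences. The 30 members of WARS included 17 that were higher, 7 lower and 6 equal, and none reached a Bayes factor of 5 (largest 4.88).

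Members made up 23.0% to 41.0% of the events of each of the 12 gene lists, against 25.7% of all events with enough reads; this share was not tested. SR proteins and TRA2, which bind exons and promote their use, are known for poison exons of their own, and 6 of the 10 such genes with an event held 16 members. Of these, 9 were higher and 5 lower in S34F, with a median difference of 0.01, equal to that over all members, and SRSF7 was the only one with a Bayes factor of at least 5. The most covered members of SRSF3 and SRSF6 were at 0 on both sides and at 0.06 and 0.05. The hnRNP proteins, which often repress exons, held 30 members in 14 of 23 genes, 18 of them equal on both sides and none apart by 0.05. Their most covered members stood at 0.06 on both sides in HNRNPA2B1, 0.04 in HNRNPF and 0.02 in HNRNPA1.

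Other splicing regulators held 93 members in 37 of 48 genes, 47 higher and 22 lower. Their differences lay between -0.08 and 0.06, and the scaffold proteins SRRM2 (0.05 and 0.06) and SON (0.02 and 0.01) and the helicase DDX17 (0.04 and 0.05) had the most reads. The factors that act with U2AF at the 3′ splice site held 19 members in 11 of 17 genes, 10 higher and 4 lower. SF3B1, the core U2 snRNP subunit, was at 0.02 and 0.01, the helicase DHX15 at 0.01 on both sides, and the branch-point protein SF1 at 0.01 and 0.03. NMD and exon junction factors held 19 members in 11 of 14 genes, 5 higher and 8 lower, with SMG1, the kinase that starts NMD, at 0.03 and 0.07, and RNPS1 and SMG5 equal on both sides at 0.01 and 0.02. No member of these 3 lists was called or had a Bayes factor of 5.

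Ribosomal protein genes held 61 members in 37 of 60 genes, and 46 of the 61 were equal on both sides. The most covered members of RPLP0 and RPS2 were listed at 0 on both sides with 17052 to 25101 reads. Near-identical ribosomal pseudogenes could take up or lend reads here, and these values are uncertain to that extent. The actin and cytolinker genes held 92 members in 35 of 41 genes, 41 higher, 14 lower and none called.

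Matrix and adhesion genes held 74 members in 19 of 32 genes. CD44 was the single call, with 24 members higher, 20 lower and a median difference of 0. The most covered were in ITGB1, the beta-1 integrin, at 0 on both sides, TGFBI, a secreted matrix protein, at 0 and 0.01, and CTNNA1, alpha-catenin, at 0.03 and 0.02. Kinase signalling genes held 44 members in 23 of 37 genes, 18 higher and 11 lower. Besides MET these included the glycogen synthase kinase GSK3B at 0.14 and 0.06 (1968 and 2781 reads, Bayes factor 1.29) and the casein kinase CSNK1D at 0.08 and 0.05.

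DNA damage and cell cycle genes held 71 members in 36 of 48 genes, of which 43 were higher and 14 lower with a median difference of 0.01. The most covered were the repair genes PARP1 at 0 on both sides, XRCC6 at 0.01 and 0, and BRCA1 at 0.07 on both sides. Chromatin regulators held 65 members in 29 of 45 genes, 25 higher and 20 lower, with the remodeller CHD2 at 0.02 and 0.08, the reader BPTF at 0.06 and 0.05 and the methyltransferase KMT2C at 0.05 and 0.03. None was called in either list.

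Genes listed as known targets of U2AF1 S34F held 20 members in 10 of 16 genes, 11 higher and 6 lower, none called. PICALM was the only gene among them with a Bayes factor of at least 5. FMR1, the fragile X protein, was at 0.04 in S34F and 0.10 in wild-type (2064 and 3018 reads, Bayes factor 0.27), and CTNNB1, beta-catenin, at 0 and 0.01. This list was made with results of these data known and is not independent evidence of a direction.

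**Figure D4:**
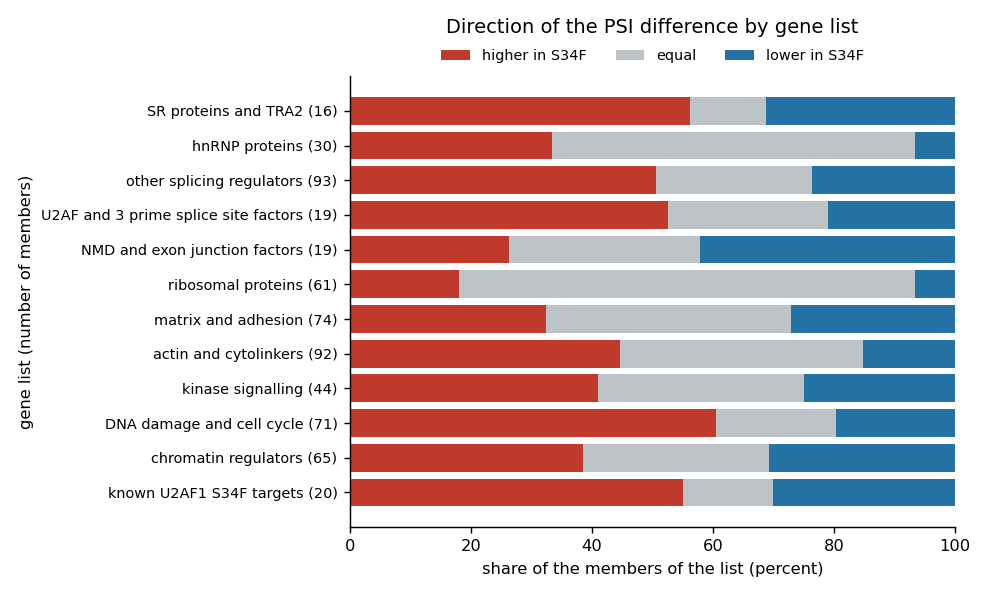
Share of the members (percent) that were higher, equal or lower in PSI on the S34F side, for each gene list, with the number of members in brackets. Ribosomal proteins had the most equal members (46 of 61), and NMD and exon junction factors had fewer higher (5) than lower (8).

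Gene expression is a measure the rule did not use, and it has replicates. All 5233 host genes were found in the expression table and 4840 passed the minimum mean of 1 FPKM over the 9 libraries. S34F dox+ was set against WT dox+ in the limma-trend fit on log2(FPKM + 1). Of the 4840 host genes, 1 was higher and 0 were lower at an adjusted p under 0.05 (Benjamini-Hochberg, two-sided). Of all 15179 genes tested, 3 (0.0198%) were higher and 5 (0.0329%) lower, so a single higher host gene was near the background. At an unadjusted p under 0.05, 186 host genes (3.84%) were higher and 147 (3.04%) lower, against 4.01% and 2.77% of all genes. These shares were near the background, and the median log2 fold change was 0.01 for host genes and 0.03 for all genes. Which direction had more host genes depended on the scaling. There were 144 higher and 193 lower with median-ratio scaling, 173 and 186 with quantile normalization, and 81 and 448 with TPM. The share of all genes was not computed under these scalings. A shift of host genes therefore cannot be told apart here from a shift of all genes. Nothing says that libraries of a group came from separate cultures, so these p-values measure only the spread between libraries, which may be technical.

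The host gene that differed was IL32, a pro-inflammatory cytokine gene. It was at 107.82 and 106.34 FPKM in S34F dox+ and at 44.29 and 48.64 FPKM in WT dox+, with no overlap (log2 fold change 1.19 ± 0.13 SE, limma-trend adjusted p = 0.0431). The uninduced S34F library had 106.77 FPKM and the WT dox- libraries 45.33 and 49.45, so the difference was as large without doxycycline, and the response to doxycycline differed between the lines by 0.03 on the log2 scale (adjusted p = 1). The call was lost without any of the 4 induced libraries (adjusted p = 0.161 to 0.252) with the fold change nearly unmoved at 1.12 to 1.25. The 5 members of IL32 were at 0.02 to 0.05 in S34F and 0.04 to 0.09 in wild-type, with Bayes factors of at most 0.20.

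None of the 9 host genes of called members passed the test (adjusted p = 0.654 to 1). CD44 was at 112.31 and 115.03 FPKM in S34F dox+ and at 111.87 and 115.33 in WT dox+, overlapping almost entirely (log2 fold change 0.0009 ± 0.16 SE). RFWD2 was at 64.47 and 56.50 FPKM against 55.94 and 55.59 (0.11 ± 0.13 SE) and HERC4 at 24.69 and 29.40 against 27.37 and 29.03 (-0.06 ± 0.15 SE). The gains of inclusion in CD44 and HERC4 thus stood beside gene levels that overlapped between the groups. The RFWD2 libraries of the 2 groups did not overlap, but 56.50 FPKM in S34F dox+ was close to 55.94 in WT dox+. With TPM in place of FPKM the RFWD2 fold change was -0.0039.

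IDH3A was at 31.95 and 33.38 FPKM in S34F dox+ and at 39.80 and 47.46 in WT dox+, without overlap (log2 fold change -0.40 ± 0.14 SE, adjusted p = 0.654). CARS2 was at 49.80 and 45.91 FPKM against 36.86 and 42.44, also without overlap (0.27 ± 0.14 SE, adjusted p = 0.772). EMC4 was at 49.37 and 46.72 FPKM against 58.95 and 60.10, also without overlap (-0.30 ± 0.11 SE, adjusted p = 0.662). None of these differences held after adjustment over all genes. The share of all genes without overlap was not computed, so lack of overlap is a description only.

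CCNK was at 43.14 and 36.65 FPKM in S34F dox+ and at 40.93 and 34.32 in WT dox+ (log2 fold change 0.08 ± 0.15 SE). ZNF28 was at 47.76 and 39.62 FPKM against 39.22 and 37.55 (0.18 ± 0.16 SE), and ZNF468 at 27.96 and 27.15 against 28.78 and 24.44 (0.05 ± 0.14 SE). The S34F and wild-type libraries overlapped in CCNK and ZNF468. They did not overlap in ZNF28, whose fold change was 0.0449 without S34F dox+ replicate 1 and 0.308 without replicate 2. Without S34F dox+ replicate 2, the library that stood apart, the fold changes of the 9 genes lay between -0.43 and 0.33 with adjusted p = 0.556 to 0.992.

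**Figure D5:**
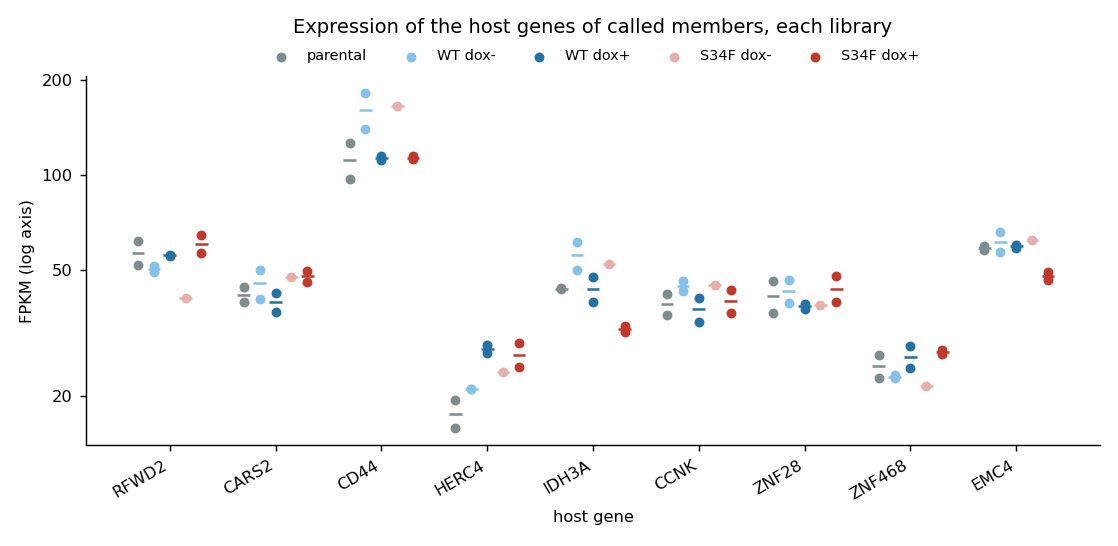
FPKM (log axis) of the 9 host genes of called members in each of the 9 libraries, coloured by group; points are libraries and short lines are group means. IDH3A and EMC4 are lower in both S34F dox+ libraries than in both WT dox+ libraries, and the CD44 libraries of these groups lie on top of each other. The libraries of these groups also do not overlap in RFWD2, CARS2 and ZNF28.

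By gene list, no host gene passed the adjusted threshold. At an unadjusted p under 0.05, where 4.01% of all genes were higher and 2.77% lower, the actin and cytolinker hosts had 5 of 35 higher and 1 lower, the matrix and adhesion hosts 2 of 19 higher and 1 lower, and the DNA damage and cell cycle hosts 0 of 36 higher and 5 lower. The hosts that act at the 3′ splice site had 2 of 11 lower, of which U2AF1 itself, the induced gene, was 1. Other splicing regulators, ribosomal proteins and chromatin regulators had 1 lower each, of 37, 37 and 29 hosts, and none higher. The 6 SR hosts, 14 hnRNP hosts, 11 NMD hosts, 23 kinase hosts and 10 hosts of known targets had none in either direction. Host genes of known targets lay between -0.22 and 0.16 on the log2 scale. The counts by list are on the FPKM scale and were not repeated with other scaling.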

How the data were processed

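Total RNA libraries of HCC78 cells were sequenced as paired ends and trimmed by the authors, who aligned reads with STAR 2.3.0 to GRCh37/hg19, obtained gene FPKM and TPM with RSEM 1.2.29, tested genes with DESeq2 and estimated splicing with MISO. The deposited splicing table gives for each event the PSI (a fraction), the read counts of each side and the Bayes factor (a ratio). The deposited FPKM and TPM values per gene and library cover 9 libraries in 5 groups. Depth in reads per library is unknown here; that no counts were used limits the expression test to FPKM. Columns of the authors' own differences in PSI were not used, and the difference was computed as S34F minus wild-type from the deposited PSI. The side naming follows the order mutant against wild-type: across 7670 genes the ratio of event reads and the ratio of FPKM had a Spearman rho of 0.59, and for 50 of the 61 genes whose FPKM differed 2-fold or more the reads leaned the same way.

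Entries of 1 event name (52837 entries, 44898 events) did not differ in any value. Calls needed sides 0.1 or more apart in PSI and a Bayes factor no lower than 5, thresholds taken from the study's methods. Expression was tested with limma 3.58.1 (R 4.3.3), trend fit on log2(FPKM + 1) with a pseudocount of 1 FPKM, genes averaging 1 FPKM or more, 5 groups in 1 fit and Benjamini-Hochberg adjustment over 15179 genes; fold changes on this scale understate those of low genes. Named members were all called ones, the 3 with the most reads per gene list, the 5 with the most reads, the 5 largest gains and losses at 500 reads, and the nearest on each side of the limit. A member that this rule names is not reported here. The members and gene lists were chosen with earlier results of these data known. Alternatives changed the read minimum, the PSI limit, the call thresholds and the expression scale, filter and libraries. Tables of other splicing events and the binding (iCLIP) samples were not used here, and no sequence is printed because no GRCh37 genome was used.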

Additional observations from a re-analysis of the deposited data

How the results depend on the processing

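The number of members stayed within 1.5 times of 9250 under all alternatives but a mean PSI of at most 0.05 (6104). The calls rest on the thresholds. With 5 gains and 3 losses as the reported counts, the gains became 0 and the losses 0 at a mean PSI of at most 0.05, with PSI of at most 0.1 on each side, or at a difference of at least 0.15; both PSI limits leave room for a difference of 0.1 at most. They became 31 and 17 at a mean PSI of at most 0.2 (12760 members). With only the wild-type PSI limited to 0.1 (10232 members), which bars losses by construction, they became 60 and 0. At a difference of at least 0.05 they were 14 and 9, and without a minimum Bayes factor 81 and 26. Of all 36059 events with enough reads, 0.807% were called higher and 0.749% lower. Without a minimum Bayes factor, 5473 of them were higher and 4908 lower by at least 0.1. The counts over all events were not computed for every threshold. At a Bayes factor of at least 10 there were 3 gains and 2 losses, and at 20 there were 2 gains and 1 loss. At a Bayes factor of at least 5 whatever the difference, chosen after seeing the data, there were 16 and 9. Read minimums of 10, 50 or 100 left both counts as they were. The host gene calls were 0 with a pseudocount of 0.1 FPKM, 0 without a minimum FPKM, 0 with TPM, and 0 with only the 4 dox+ libraries; without 1 of the 4 induced libraries they ranged from 0 to 1, and the 1 was RP11-298I3.5 (log2 fold change -2.76, adjusted p = 0.0262), at 12.22 and 0 FPKM in the 2 S34F dox+ libraries. Same-numbered libraries of different groups had correlated deviations of -0.0756 to 0.0374, so the numbers were not taken to pair the samples; with the replicate block 0 host genes were called (IL32 adjusted p = 0.0615).

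Of 108 alternative fold changes of the 9 host genes of called members, 97 kept their direction, 11 turned, and none passed the threshold; all that turned were near 0. With TPM these were RFWD2 (-0.0039), CD44 (-0.12), CCNK (-0.0322) and ZNF468 (-0.0609), and with median-ratio scaling CD44 (-0.0269). Leaving out 1 library turned CD44 (range -0.0208 to 0.0227), HERC4 (-0.184 to 0.0587), CCNK (-0.0406 to 0.207) and ZNF468 (-0.0607 to 0.167). It moved RFWD2 between 0.0186 and 0.206, CARS2 between 0.168 and 0.367 and ZNF28 between 0.0449 and 0.308. No direction is therefore given for the 5 genes that turned. The cause was not tested.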
